A study of Mus musculus with 8 samples.

Results

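Mouse melanoma cells were compared after 24 hours on matrix left by smooth muscle cells that had received siFN and then been kept in SFM, read here as serum-free medium. The comparison used 4 of the 8 libraries of the study. On the siFN side stood SFM siFN and SFM siKLF4-siFN, and on the other side SFM siNT and SFM siKLF4, so that siKLF4 was present once on each side. The deposited table has 46477 rows, of which 6888 had a mean FPKM of at least 1 over these 4 libraries. FPKM is a fragment count set relative to gene length and to library size. The members are the genes that moved the same way in both matched pairs, siFN minus siNT and siKLF4-siFN minus siKLF4. They numbered 4804 of 6888, with 2524 higher (36.6% of genes tested) and 2280 lower (33.1%) on the siFN side. That share was fixed by the rule itself and nothing is read from it.

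B16-F10 is an established mouse melanoma line. All 8 libraries came from these cells, with 1 library per condition and no label that marks separate cultures. The siRNA was applied to the smooth muscle cells for 72 hours. These were then kept for a further 72 hours in SFM or in TCM, read here as tumor conditioned medium, and lysed. The 4 treatments were siFN, siKLF4-siFN, siKLF4 and siNT, which is read as the non-targeting control, siFN as siRNA against fibronectin and siKLF4 as siRNA against Klf4. The melanoma cells themselves received no siRNA, so their own Fn1 and Klf4 do not check the labels. The 4 libraries on TCM matrix, with the same 4 treatments, enter only as part of the estimate of spread and for the test between media. No measure of the matrix itself was used here.

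Fibronectin is a large glycoprotein of the extracellular matrix that cells hold through integrins, mainly the pair of Itga5 and Itgb1 or of Itgav with a beta chain, together with syndecans such as Sdc4. Bound integrins gather focal adhesions, and growth factor signals pass to cyclin D and the cell cycle more readily in cells that are attached. Melanoma cells also move between a pigmented, differentiated state and an invasive, mesenchymal one. All of this is background and not a result of these data.

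Cell identity was checked with marker genes first. Of 7 markers of melanoma cells 6 were measured, and Mitf fell under a mean of 1 FPKM. The summed FPKM of all 7 was 351 and 524 in SFM siFN and SFM siKLF4-siFN, against 554 and 478 in SFM siNT and SFM siKLF4. Mitf was at 0.205 and 0.131 FPKM with siFN against 0.777 and 0.840 without. Of 16 smooth muscle markers only Des passed a mean of 1, at 0.938 and 1.48 FPKM with siFN against 1.12 and 0.915 without. None of 10 fibroblast markers did, Eng alone passed of 9 endothelial markers and Cd68 alone of 9 leukocyte markers. The summed FPKM of the smooth muscle list was 1.81 and 2.36 in the siFN libraries and 2.28 and 2.16 in the others, with 4 of the 16 markers listed at 0 in all SFM libraries. A 0 need not mean low expression here, because all 37 mitochondrially encoded transcripts were listed at 0 in all 8 libraries.

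Some libraries stood apart. The estimated depth ranged from 11600000 to 23000000 reads. Genes at an FPKM of at least 1 numbered 6718 and 6525 in SFM siFN and SFM siKLF4-siFN, against 7040 and 7088 in SFM siNT and SFM siKLF4. Across the genes tested, the Pearson correlation of log2 values was 0.969 between both siFN libraries and 0.988 between the 2 without siFN. SFM siFN was closer to TCM siNT (0.981) than to SFM siKLF4-siFN. The 2 TCM libraries with siFN were the closest pair of all, at 0.995. In SFM siKLF4-siFN the difference from its match moved with gene length: the median was 0.19 for the 1326 shortest protein-coding genes tested and -0.10 for the 1325 longest. In the other pair it was -0.05 and -0.02.

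Values were analysed as log2(FPKM + 1), where a difference of 1 is a doubling for well expressed genes and understates the change of low ones. A gene of 2 kb at an FPKM of 1 corresponds to between 23.1 and 46.0 reads, a counting error of 14.7% to 20.8%. The siFN difference is the mean of both pairs, tested with limma over all 8 libraries. In it 462 genes passed an adjusted p of 0.05, 223 higher (3.24% of genes tested) and 239 lower (3.47%). At an unadjusted p under 0.05 stood 2301 genes (33.4%). Of the higher calls 190, and of the lower calls 122, had a mean of at least 1 FPKM on both sides. The rest passed the expression filter through one side, which partly fixed their direction. Among the 6233 genes at or above 1 on both sides, 3.05% were called higher and 1.96% lower. Counts in each list below stand against these shares, or against the 3.24% and 3.47% over all genes tested. All 462 moved the same way in both pairs, and in all of them both siFN libraries lay on one side of both others. Over all genes tested, both siFN libraries lay above both others in 2168 (31.5%) and below them in 2018 (29.3%).

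These calls sit close to the threshold, with adjusted p-values from 0.0343 upward. With 1 library left out, limma called 0 genes when SFM siKLF4-siFN was missing and 1420 stood at an unadjusted p under 0.05. It also called 0 when SFM siKLF4 or SFM siNT was missing, with 1204 and 1610 at that level. It called 1795 without SFM siFN, 65 without TCM siFN and 57 without TCM siKLF4-siFN. When the 2 TCM siFN libraries were averaged into 1, a setting chosen after seeing the data, 57 genes were called. The 76 called genes named in the text kept their sign in every setting tried. That was largely fixed in advance, because genes were called with both pairs moving the same way. Settings that change only the model or the TCM libraries also leave the siFN difference on SFM matrix as it was. Nothing is read from the kept sign.

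Without any test, a difference of at least 1 on the log2 scale in both pairs was seen for 35 genes higher (0.508%) and 107 lower (1.55%). In the pair siFN minus siNT alone, 57 genes were higher and 191 lower by that much, and in the pair siKLF4-siFN minus siKLF4 188 and 489. Of the first pair's large differences 61.4% (higher) and 56% (lower) recurred in the second, which is 18.6% and 21.9% of the second pair's. Only 5 genes passed 1 in opposite directions. The pairs share no library, and their differences correlated at 0.583 (Pearson) across the 6888 genes, which are not independent replicates. Near the FPKM limit, Gstm6 (mean 1.00034) and Etfa (1.00235) fell just inside, Sfxn1 (0.999894) and Tbc1d15 (0.999831) just outside.

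**Figure D1:**
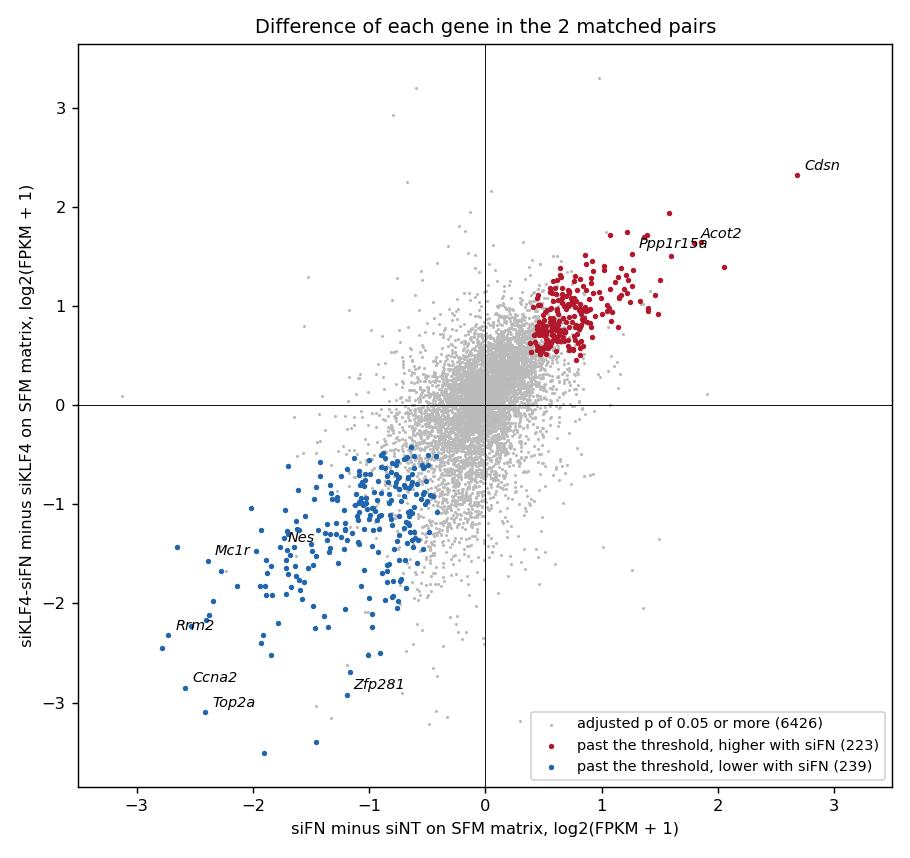
Difference of each of 6888 genes on SFM matrix, siFN minus siNT on the x axis and siKLF4-siFN minus siKLF4 on the y axis, both on the log2(FPKM + 1) scale. Red points (223) and blue points (239) passed the limma threshold and lie at the upper right and lower left. Grey points (6426) did not pass, and Cdsn and Top2a lie at the ends.

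Of the lists examined, mitosis had the largest count of lower calls. Of 70 listed genes of mitosis and chromosome segregation 69 were in the table and 34 were tested, and 28 of the 34 fell and none rose. The background was 3.47% lower calls over all genes. The median difference of the 34 was -1.54, against 0.02 over all genes tested. With the 2 TCM siFN libraries averaged into 1, 9 of the 34 were called, without TCM siNT 29, without SFM siFN 25, and 0 without any of the other 3 SFM libraries. Both siFN libraries lay below both others in 33 of the 34, Pttg1 being the exception, against 29.3% of all genes tested. Of the 34, 25 had a mean under 1 FPKM on the siFN side and passed the expression filter through the other libraries, so their direction was partly fixed by that filter. Among the 9 members at or above 1 on both sides, 6 fell: Cdca3, Birc5, Cdc20, Mad2l1, Foxm1 and Ncapd2. The background at that level was 1.96% lower calls. Over all listed genes with any signal, without the filter, the median was -1.13. In bulk RNA, fewer dividing cells and less of each RNA per dividing cell cannot be told apart.

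Top2a, the topoisomerase that untangles chromosomes before they separate, was at 0.559 and 0.187 FPKM in SFM siFN and SFM siKLF4-siFN, against 7.29 and 9.14 in SFM siNT and SFM siKLF4. Its difference was -2.75 ± 0.36 (SE, log2, limma adjusted p = 0.0343). Ccna2, cyclin A2, had 1.28 and 0.706 FPKM with siFN against 12.7 and 11.3 without it, a difference of -2.72 ± 0.39 (adjusted p = 0.0343). In both genes the groups did not overlap, as in all 462 called genes, so nothing more is read from that. Top2a and Ccna2 had means under 1 FPKM on the siFN side and passed the expression filter through the other libraries. Their direction was thus partly fixed by that filter. Cdca3, which helps cells enter mitosis, stood at 2.4003 and 2.72 FPKM in the siFN libraries and 22.3 and 19.3 in the others. Birc5, which encodes survivin, a member of the chromosomal passenger complex, was at 1.10 and 1.21 against 11.2 and 9.31 FPKM. Its kinase partner Aurkb fell by 2.24 ± 0.33 (SE, log2), and cyclin B1 (Ccnb1) by 2.29 ± 0.42. Aurkb and Ccnb1 also had means under 1 FPKM on the siFN side, so the filter partly fixed their direction as well.

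Proteins of the dividing spindle and furrow followed. Prc1, which bundles microtubules of the spindle midzone, had 0.549 and 0.444 FPKM with siFN against 4.82 and 6.19 without. Anln, the scaffold of the cleavage furrow, had 0.227 and 0.126 against 1.84 and 2.08 FPKM. Their differences were -2.11 ± 0.30 and -1.33 ± 0.19 (adjusted p = 0.0343 for both). Prc1 and Anln passed the expression filter through the libraries without siFN, so their direction was partly fixed by that filter. Gtse1, a microtubule-binding protein of G2 cells that also stands in the p53 list, fell by 1.75 ± 0.36 (adjusted p = 0.0440).

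The S phase list moved in the same direction. Of 48 genes 27 were tested, and 16 of the 27 fell and none rose, with a median of -1.03. Over all genes tested 3.47% were lower calls. With the 2 TCM siFN libraries averaged, 3 of them were called, without SFM siFN 15, and 0 without any of the other 3 SFM libraries. The siFN libraries lay below both others in all 27, against 29.3% of all genes tested. Here 8 of the 27 were under 1 FPKM on the siFN side. Of the 19 at or above 1 on both sides 9 fell, against 1.96% lower calls over all genes at that level. Rrm2, the regulatory subunit of ribonucleotide reductase, which supplies DNA precursors, was at 2.98 and 3.81 FPKM with siFN against 25.4 and 23.05 without. Its difference was -2.52 ± 0.40 (SE, log2, adjusted p = 0.0343). The replicative helicase subunits Mcm4 and Mcm5 fell by 1.68 ± 0.26 and 1.58 ± 0.25, and Rpa2, which coats single-stranded DNA, by 1.10 ± 0.17 (adjusted p = 0.0343 for each). Mcm4 and Rpa2 had means under 1 FPKM on the siFN side, so the expression filter partly fixed their direction. Topbp1, a replication checkpoint protein, was 1 of only 4 measured genes of the homologous recombination and crosslink repair list. It stood at 0.565 and 0.292 FPKM against 1.73 and 1.98, a difference of -1.0035 ± 0.19 (adjusted p = 0.0411). Topbp1 passed the expression filter through the libraries without siFN, so its direction was partly fixed by that filter. Of the 2 genes of this repair list at or above 1 FPKM on both sides none passed.

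Among cyclins, kinases and inhibitors of G1, 11 of 25 were tested, with a median of -0.83. Of the 11, 4 fell and none rose, against 3.47% lower calls over all genes tested. Of the 10 at or above 1 FPKM on both sides 3 fell, against 1.96% lower calls over all genes at that level. Both drivers and brakes of the cycle were among them. Ccnd1, cyclin D1, which couples growth signals to cell cycle entry, was at 3.24 and 2.75 FPKM with siFN against 7.11 and 7.40 without, a difference of -1.05 ± 0.22 (adjusted p = 0.0456). Cdkn2d, an inhibitor of Cdk4 and Cdk6, was lower by more, at 2.30 and 2.38 FPKM against 7.61 and 7.28 (-1.34 ± 0.21, adjusted p = 0.0343). E2f1, the transcription factor of S phase genes, and Ccne1, cyclin E1, fell by 0.92 ± 0.17 and 0.70 ± 0.15 (adjusted p = 0.0403 and 0.0467). The mean of E2f1 was under 1 FPKM on the siFN side, so its direction was partly fixed by the expression filter. Myc, from the list of immediate early genes, was the one measured member of 17 to pass and rose, at 19.8 and 16.3 FPKM with siFN against 11.2 and 9.97 without (0.71 ± 0.15, adjusted p = 0.0465).

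Chromatin proteins of dividing cells fell in 5 of 11 measured members, against 3.47% lower calls over all genes tested. None was higher and the median was -0.91. Of the 11, 4 were under 1 FPKM on the siFN side and passed the filter through the other libraries, and of the 7 at or above 1 on both sides only Hmgb2 fell. Hmgb2, a DNA-bending protein, was at 3.93 and 2.24 FPKM with siFN against 16.7 and 17.5 without (-2.18 ± 0.43, adjusted p = 0.0417). Atad2, a bromodomain ATPase, had 0.554 and 0.107 against 3.08 and 3.84 FPKM, and Dek, a histone-binding protein, 0.457 and 0.0789 against 1.62 and 2.31 FPKM. In both, SFM siKLF4-siFN was the lower of the siFN libraries by several times. Ezh2, the methyltransferase of Polycomb, fell by 0.86 ± 0.18 (adjusted p = 0.0442). Of 18 measured p53 targets, Gtse1 alone passed. Its mean was under 1 FPKM on the siFN side, so its direction was partly fixed by the filter. Of the 16 p53 targets at or above 1 on both sides none passed. Ccng1, cyclin G1, was at 27.4 and 7.29 FPKM against 70.3 and 72.6, and Trp53inp1 at 15.5 and 7.81 against 32.8 and 36.4, with adjusted p-values of 0.063 and 0.0564.

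**Figure D2:**
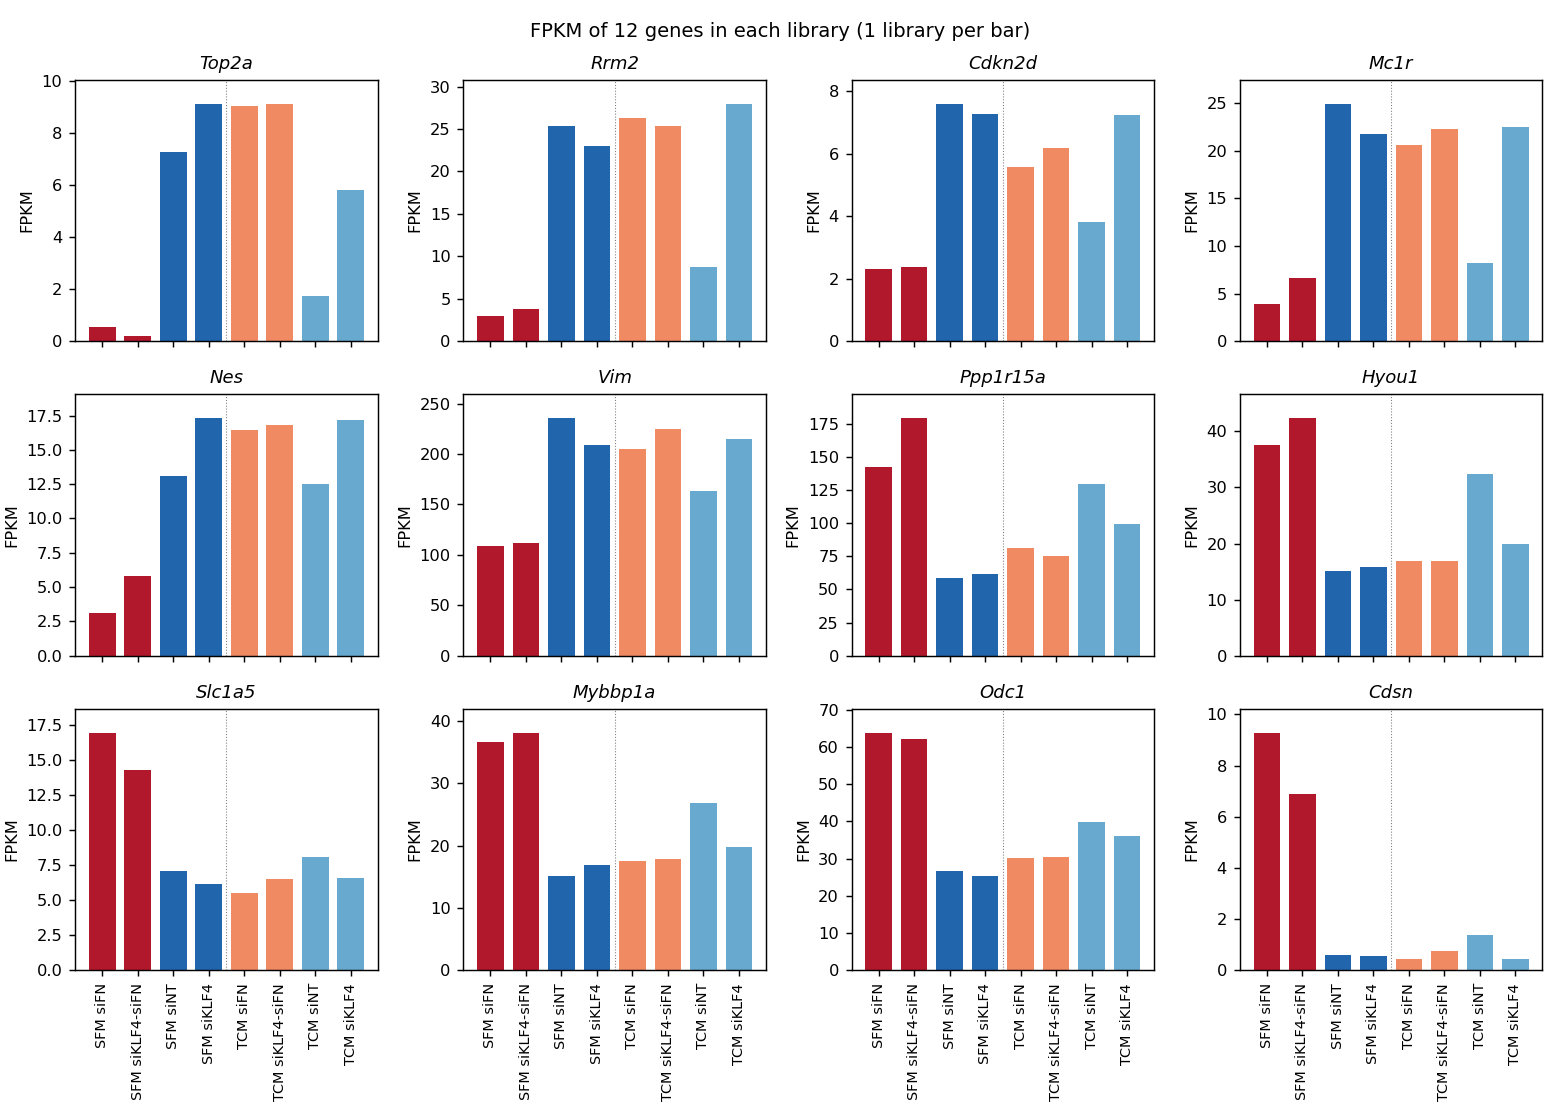
FPKM of 12 genes in the 8 libraries, 1 library per bar, with SFM libraries left of the dotted line and TCM libraries right of it. Red and orange bars had siFN, dark and light blue bars did not. On SFM matrix the first 6 genes are lower and the last 6 higher in both siFN libraries, and TCM siNT lies on the side of the siFN libraries for Top2a, Rrm2 and Hyou1.

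The 250 bases before the RefSeq start site (GRCm38.p6) were read for genes that the results turn on. Promoters of mitotic genes are known for pairs of the CCAAT box and the CHR element, the binding site of the DREAM and MuvB complexes, ER chaperone promoters for CCAAT within the ER stress element, and pigment genes for the E-box of MITF. The search covered both strands. The letters were CCAAT for the CCAAT box and TTTGAA for the CHR. The E2F site was searched as TTCCCGC and the E-box of MITF as CATGTG. For the ATF4 core the letters TGATGNAA were used. Matches that overlap were each counted, and in the sequences shown none overlapped. Capitals mark every match of these 5 motifs. Top2a lies on chromosome 11 (minus strand, bases 99024190 to 99024439), Rrm2 on chromosome 12 (plus strand, 24708004 to 24708253), Calr on chromosome 8 (minus strand, 84846932 to 84847181) and Mc1r on chromosome 8 (plus strand, 123406832 to 123407081).
Top2a: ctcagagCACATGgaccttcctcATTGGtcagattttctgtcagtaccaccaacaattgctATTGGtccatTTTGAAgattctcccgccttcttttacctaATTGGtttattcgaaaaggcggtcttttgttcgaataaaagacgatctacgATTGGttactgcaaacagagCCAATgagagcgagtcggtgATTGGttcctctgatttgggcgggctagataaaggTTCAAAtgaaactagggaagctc
Rrm2: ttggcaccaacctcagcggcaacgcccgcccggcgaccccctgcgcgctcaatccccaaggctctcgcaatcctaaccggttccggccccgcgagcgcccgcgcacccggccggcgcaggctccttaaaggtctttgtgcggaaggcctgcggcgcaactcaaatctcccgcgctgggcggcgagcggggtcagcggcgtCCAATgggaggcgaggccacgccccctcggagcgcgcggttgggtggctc
Calr: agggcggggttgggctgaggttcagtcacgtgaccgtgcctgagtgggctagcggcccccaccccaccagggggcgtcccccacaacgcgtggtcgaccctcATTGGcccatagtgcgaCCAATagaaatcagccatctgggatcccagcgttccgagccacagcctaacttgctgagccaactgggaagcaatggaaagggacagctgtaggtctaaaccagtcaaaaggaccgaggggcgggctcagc
Mc1r: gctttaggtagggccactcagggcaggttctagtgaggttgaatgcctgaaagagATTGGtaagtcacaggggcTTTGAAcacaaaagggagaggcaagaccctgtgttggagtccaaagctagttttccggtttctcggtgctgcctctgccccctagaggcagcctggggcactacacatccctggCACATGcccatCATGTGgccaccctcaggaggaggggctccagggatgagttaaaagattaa
Top2a held 6 CCAAT boxes, 1 E-box and 2 CHR elements, the CHR nearest the start beginning at base -23. Rrm2 held 1 CCAAT box and Calr 2, while Mc1r held 1 CCAAT box, 1 CHR and 2 E-boxes, these starting at bases -62 and -51. The promoter of Ppp1r15a held none of the 5 motifs in this window. A CCAAT box stood in 71.4% of the 28 mitosis promoters found, 78.3% of the 23 S phase promoters and 89.5% of the 19 ER chaperone promoters, against 38.2% of the 4334 tested genes with a promoter and 34.3% of all 27025. It stood in 57.1% of promoters of called lower genes and 31.1% of called higher ones. CHR was present in 39.3% of mitosis promoters against 9.8% of tested genes, and the ATF4 core in 31.2% of 16 ATF4 and CHOP response promoters against 1.8%. These shares describe letters in a window, and binding was not measured.

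Pigment and lineage genes were lower in part. Mc1r, the melanocortin receptor that drives pigment synthesis, was at 3.96 and 6.65 FPKM with siFN against 24.9 and 21.7 without, a fall of 1.98 ± 0.34 (SE, log2, adjusted p = 0.0364). It was the member of the lineage list that passed, of 5 measured. In all 5 both siFN libraries lay below both others (median -0.54), against 29.3% of all genes tested. Erbb3, a neuregulin receptor, was at 2.28 and 3.79 FPKM against 4.56 and 4.98, and Sox10, the lineage transcription factor, at 11.9 and 23.2 against 28.8 and 25.1. Neither passed (adjusted p = 0.0812 and 0.154), and for Sox10 the SFM siKLF4-siFN library came close to its match.

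Of 8 measured melanin enzymes and melanosome proteins 1 fell. Tyr, tyrosinase, the rate-limiting enzyme of melanin synthesis, was at 1.48 and 1.32 FPKM with siFN against 4.07 and 3.61 without (-1.01 ± 0.15, adjusted p = 0.0343). Mlana, a melanosome protein, was at 24.4 and 25.9 against 50.6 and 36.5 FPKM. Dct was at 35.3 and 69.3 against 96.5 and 89.5, and Pmel, the melanosome fibril protein, at 40.4 and 78.8 against 110 and 83.9 FPKM. None of these 3 passed (adjusted p = 0.0681, 0.0837 and 0.137). Of the 8, 5 were lower in both pairs and 3 moved in opposite directions. Tyrp1, the melanoma marker of highest FPKM, was at 237 and 325 FPKM with siFN against 263 and 238 without, so the groups overlapped. The list's median was -1.03 in the pair siFN minus siNT and -0.17 in the pair siKLF4-siFN minus siKLF4, so most of its members were low in SFM siFN more than in SFM siKLF4-siFN. Of 11 measured melanosome transport genes none passed. Rab27a, which tethers melanosomes to actin motors, was nearest at -0.62 ± 0.14 (adjusted p = 0.0518).

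Genes linked to the invasive, mesenchymal state were lower in part. Of 23 listed genes 7 were measured, all at or above 1 FPKM on both sides. Of the 7, 4 fell and none rose (median -1.0024), against 1.96% lower calls over all genes at that level. In the list, 2 genes moved in opposite directions in the 2 pairs. Nes, the intermediate filament nestin, stood at 3.14 and 5.80 FPKM with siFN against 13.1 and 17.3 without (-1.60 ± 0.19, adjusted p = 0.0343). Vim, vimentin, was at 109 and 112 against 236 and 209 FPKM (-1.0024 ± 0.18, adjusted p = 0.0364). Within each side the vimentin values lay closer together than the sides did. Sox9, a transcription factor of neural crest and cartilage, fell by 1.24 ± 0.18, and Anxa1, a calcium-dependent membrane protein, by 1.11 ± 0.14 (adjusted p = 0.0343 for both). Lower calls were found among genes of the differentiated and of the invasive state. In all 462 called genes both siFN libraries lay on one side of both others. Nothing is therefore read from these calls being low in the same 2 libraries.

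Receptors of the matrix gave 1 call. Of 25 fibronectin and laminin receptor genes 5 were measured, 1 fell and none rose (median -0.40). Cd44, a receptor for hyaluronan that also binds fibronectin fragments, was at 1.36 and 1.66 FPKM with siFN against 3.13 and 2.98 without (-0.69 ± 0.12, adjusted p = 0.0364). Itgb1, the common beta chain, was at 10.7 and 10.5 FPKM against 12.4 and 14.1 (-0.30 ± 0.14, adjusted p = 0.178). Itgav was at 1.05 and 0.616 against 1.51 and 1.56, and Sdc4 at 1.26 and 1.62 against 2.24 and 2.19 FPKM. Itga5, the alpha chain of the classical fibronectin receptor, pointed the other way, at 1.90 and 2.67 FPKM against 1.61 and 1.47 (0.36 ± 0.19, adjusted p = 0.227). None of these 4 integrin and syndecan genes passed.

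Matrix genes of the melanoma cells gave no call. Fn1 itself was at 3.12 and 3.102 FPKM in SFM siFN and SFM siKLF4-siFN, against 1.82 and 2.32 in SFM siNT and SFM siKLF4. That difference of 0.43 ± 0.13 did not pass (adjusted p = 0.0802), although the groups did not overlap. Klf4 was at 8.62 and 5.79 FPKM against 6.84 and 6.56, with groups that overlap (0.07 ± 0.16, adjusted p = 0.783). None of 5 measured matrix components and none of 10 measured proteases and inhibitors passed. Among them were Sparc, a matricellular protein, at 10.9 and 12.6 against 14.8 and 15.9 FPKM, and Mmp14, a membrane-bound collagenase, at 8.33 and 4.21 against 9.71 and 8.37 FPKM. Plaur, the urokinase receptor, was at 2.85 and 2.20 against 1.56 and 1.15 FPKM (0.58 ± 0.14, adjusted p = 0.0531).

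In the lists of adhesion signalling, single genes passed. Zyx, zyxin, a mechanosensitive protein of focal adhesions, rose to 57.6 and 68.2 FPKM with siFN, against 30.2 and 28.5 without (1.07 ± 0.22, adjusted p = 0.0430). It was 1 of 13 measured focal adhesion genes, whose median was -0.05. Of the others, Actn4, an actin crosslinker, was at 2.34 and 2.74 against 3.57 and 4.09 FPKM (adjusted p = 0.0657). Of 12 measured YAP and SRF targets 2 fell. They were Tpm4, a tropomyosin, at 6.28 and 6.41 FPKM against 14.3 and 13.2 (-1.01 ± 0.14, adjusted p = 0.0343), and Ctgf, a matricellular growth factor, at 1.70 and 1.35 against 3.81 and 3.39 (-0.87 ± 0.16, adjusted p = 0.0382).

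Of 7 measured genes of Met and ERK feedback 2 fell and none rose. Met, the receptor of hepatocyte growth factor and a target of MITF, was at 2.63 and 1.72 FPKM with siFN against 4.90 and 5.42 without (-0.97 ± 0.18, adjusted p = 0.0394). Phlda1, an ERK-induced gene, was at 37.2 and 42.5 against 86.0 and 67.1 FPKM (-0.92 ± 0.20, adjusted p = 0.0465). None of 8 measured interferon response genes and chemokines passed. In 7 of them both siFN libraries lay below both others, against 29.3% of all genes tested. Cxcl10, a T cell chemokine, was at 15.0 and 3.82 FPKM against 42.8 and 38.4 (-2.24 ± 0.88, adjusted p = 0.131), and Ifit2 at 1.31 and 0.430 against 2.64 and 3.19. Of 6 measured MHC class I genes 1 fell: B2m, the light chain, stood at 14.8 and 12.5 against 32.5 and 25.7 FPKM (-1.04 ± 0.22, adjusted p = 0.0446).

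**Figure D3:**
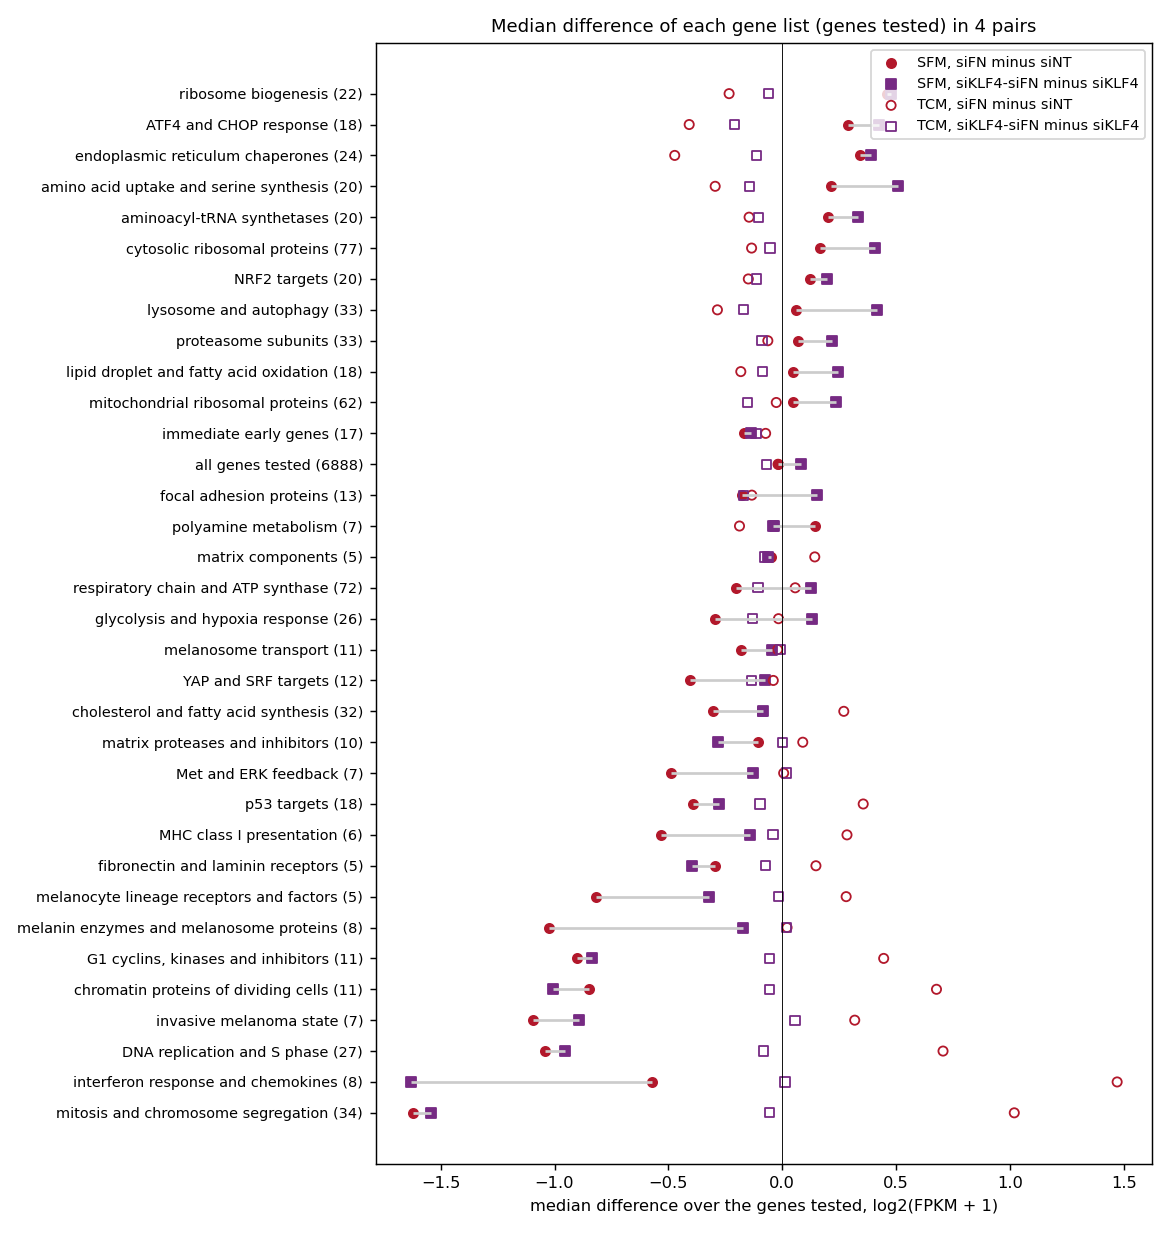
Median difference over the tested genes of each list, in log2(FPKM + 1), with the number of genes tested in brackets. Filled red circles show siFN minus siNT and filled purple squares siKLF4-siFN minus siKLF4 on SFM matrix, and open symbols show the same pairs on TCM matrix. On SFM matrix mitosis has medians of -1.62 and -1.54 and ribosome biogenesis 0.46 and 0.48. In the siKLF4-siFN pair, interferon response and chemokines lie lower than mitosis, at -1.63, and amino acid uptake higher than ribosome biogenesis, at 0.51.

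Stress, amino acid and ribosome-building lists each held between 1 and 7 of the 223 higher calls. In the integrated stress response, phosphorylated eIF2 lets Atf4 be translated, and Ddit3 (CHOP), Trib3 and Ppp1r15a follow. Of 18 measured ATF4 and CHOP response genes 2 rose and none fell, against 3.24% higher calls over all genes, and in 14 of the 18 both siFN libraries lay above both others, against 31.5% of all genes tested (median 0.44). Ppp1r15a, which returns eIF2 to its active form, was at 142 and 179 FPKM with siFN against 58.8 and 61.6 without (1.39 ± 0.20, adjusted p = 0.0343). Trib3, a pseudokinase that restrains Atf4, was at 62.2 and 63.1 against 36.8 and 29.7 FPKM (0.90 ± 0.16, adjusted p = 0.0394). Gadd45a, a growth arrest gene, was at 101 and 78.8 against 43.8 and 47.5 FPKM, and Nupr1, a stress-induced chromatin protein, at 10.2 and 8.69 against 6.31 and 6.19. These last 2 did not pass (adjusted p = 0.0653 and 0.0627), though their groups did not overlap.

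Of 24 measured ER chaperones and ER stress genes 1 rose (4.17%) and none fell, a share near the 3.24% over all genes. In 18 both siFN libraries lay above both others, against 31.5% of all genes tested, and the median was 0.42. Hyou1, a large chaperone of the ER lumen, was at 37.6 and 42.4 FPKM with siFN against 15.1 and 15.8 without (1.32 ± 0.23, adjusted p = 0.0364). Calr, calreticulin, whose promoter is shown above, was at 139 and 163 against 87.7 and 94.5 FPKM (0.72 ± 0.19, adjusted p = 0.0691). Derl1, of ER-associated degradation, and the disulfide isomerase Pdia6 both differed by 0.75 (adjusted p = 0.0515 and 0.0590).

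Of 20 measured genes of amino acid uptake and serine synthesis 3 rose (15%) and none fell, against 3.24% higher calls over all genes (median 0.38). Slc1a5, the glutamine transporter, was at 17.0 and 14.3 FPKM against 7.11 and 6.18 (1.12 ± 0.16, adjusted p = 0.0343). Slc6a9, the glycine transporter, was at 4.33 and 4.11 against 1.85 and 1.88, and Pycr1, the last enzyme of proline synthesis, at 5.20 and 4.39 against 1.97 and 1.74 FPKM. Both passed at an adjusted p of 0.0343. Of 20 aminoacyl-tRNA synthetases, which load amino acids on tRNA, 2 rose (10%) and none fell (median 0.29). Wars was at 10.4 and 10.8 against 5.28 and 5.14 FPKM, Vars at 14.9 and 19.0 against 9.65 and 9.87, and Gars, which did not pass, at 30.3 and 31.1 against 19.4 and 20.3.

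Ribosome biogenesis had the largest share of higher calls among these lists, 7 of 22 measured genes (31.8%) with none lower and a median of 0.50. Over all genes tested 3.24% were higher calls. Of the 22, 3 were under 1 FPKM without siFN and passed the expression filter through the siFN libraries. Of the 19 at or above 1 FPKM on both sides 5 rose, against 3.05% higher calls over all genes at that level. Mybbp1a, a nucleolar regulator of rRNA synthesis, was at 36.6 and 38.1 FPKM with siFN against 15.2 and 16.8 without (1.18 ± 0.18, adjusted p = 0.0343). Ifrd2, a factor that binds idle ribosomes, was at 7.79 and 6.62 against 2.50 and 2.69, and Nop16 at 7.51 and 8.17 against 3.84 and 2.79 FPKM. Rrp9, of the U3 particle, rose by 0.67 ± 0.10. Its mean was under 1 FPKM without siFN, so its direction was partly fixed by the filter. The ribosomal proteins themselves did not pass in any of 77 cytosolic genes (median 0.28). Rplp2, of the stalk, was at 57.2 and 79.4 against 43.3 and 36.3 FPKM (adjusted p = 0.0669). Genes of this family share reads with many processed copies, so their values are uncertain.

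Polyamine synthesis is known to be driven by Myc. Of 7 measured genes of polyamine metabolism 2 rose and 1 fell (median -0.05). Over all genes tested 3.24% were higher and 3.47% lower calls. Odc1, ornithine decarboxylase, the rate-limiting enzyme, was at 63.8 and 62.0 FPKM with siFN against 26.6 and 25.2 without (1.25 ± 0.14, adjusted p = 0.0343). Srm, spermidine synthase, was at 20.9 and 22.1 against 9.81 and 7.99 FPKM (1.19 ± 0.19, adjusted p = 0.0343). Sat1, which acetylates polyamines for export and breakdown, fell to 15.5 and 19.5 FPKM with siFN, against 32.9 and 33.6 without (-0.89 ± 0.15, adjusted p = 0.0357). These 3 were the called genes among 7 measured. Of the 7, 2 were higher and 2 lower in both pairs, and 3 moved in opposite directions.

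Redox and metabolic lists gave few calls. Of 20 measured NRF2 targets 1 rose: Hmox1, heme oxygenase, stood at 253 and 245 FPKM against 113 and 93.4 (1.27 ± 0.18, adjusted p = 0.0343). Srxn1, which repairs peroxiredoxins, was at 156 and 181 against 96.9 and 90.8, and the ferritin chain Fth1 at 1725 and 2101 against 1329 and 1022 FPKM. Neither of these passed (adjusted p = 0.0779 and 0.0608). In glycolysis and the hypoxia response 2 of 26 rose, P4ha2, a collagen prolyl hydroxylase subunit (0.71 ± 0.12), and Ndrg1 (0.72 ± 0.13), and Bnip3, a mitophagy receptor, fell by 0.84 ± 0.17. These calls were 7.69% higher and 3.85% lower of that list, against 3.24% and 3.47% over all genes tested.

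Of 33 measured lysosome and autophagy genes 1 rose: Ctsl, cathepsin L, was at 88.2 and 108 FPKM against 46.4 and 43.9 (1.10 ± 0.24, adjusted p = 0.0467). Of 18 measured genes of lipid droplets and fatty acid oxidation, Acot2, a mitochondrial thioesterase, rose to 64.0 and 52.4 FPKM against 17.8 and 16.2, and Acadm, medium-chain acyl-CoA dehydrogenase, fell to 0.947 and 0.966 against 1.98 and 1.80. Acadm passed the expression filter through the libraries without siFN, so its direction was partly fixed by that filter. Fabp5, a fatty acid carrier, was at 19.5 and 20.0 against 43.0 and 48.1 FPKM (-1.16 ± 0.27, adjusted p = 0.0518). None of 32 measured cholesterol and fatty acid synthesis genes passed (median -0.25). Pmvk, of the mevalonate pathway, was at 1.57 and 2.98 against 5.44 and 5.04 FPKM.

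Mitochondrial ribosomal proteins gave 4 higher and 2 lower calls among 62. Mrpl38 and Mrpl24 rose by 0.93 ± 0.14 and 0.86 ± 0.17 and Mrps18b by 0.85 ± 0.18, while Mrpl18 was at 4.43 and 3.09 FPKM against 9.58 and 8.81. Of 72 respiratory chain genes 1 rose and 1 fell: Cox6a2, the muscle form of a cytochrome oxidase subunit, at 4.34 and 5.28 against 0.788 and 0.645 FPKM, and Uqcrh at 4.29 and 4.82 against 8.85 and 7.95. Cox6a2 had a mean under 1 FPKM without siFN and passed the filter through the siFN libraries, so its direction was partly fixed by it. Of the 71 respiratory chain genes at or above 1 FPKM on both sides none rose. Of 33 proteasome subunits Psmb5, a catalytic one, rose by 0.85 ± 0.19 (adjusted p = 0.0481). None of 4 measured galectins passed, Lgals3 being at 16.9 and 19.8 against 15.1 and 11.8 FPKM.

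Outside these lists, the largest rise was that of Cdsn, corneodesmosin, an adhesion protein of cornified skin, at 9.29 and 6.87 FPKM with siFN against 0.607 and 0.578 without (2.50 ± 0.23, adjusted p = 0.0343). It lies on chromosome 17 (35552128 to 35557180). Gsto1, a glutathione transferase, was at 13.4 and 7.22 against 2.47 and 2.14 FPKM, and Steap1, a membrane metalloreductase homolog, at 4.27 and 3.27 against 0.740 and 0.508. Among well expressed genes, Chchd10, of the mitochondrial intermembrane space, was at 56.4 and 48.5 against 23.7 and 13.8 FPKM, and Cyb5r1, a cytochrome b5 reductase, at 43.1 and 46.7 against 16.1 and 13.7. The rest of the 12 largest rises were Sh2d6, Angptl6, a secreted angiopoietin-like factor, and Phlda2, with differences of 1.75, 1.55 and 1.28. Cdsn, Steap1, Sh2d6 and Phlda2 had means under 1 FPKM without siFN and passed the filter through the siFN libraries, so the direction of these 4 was partly fixed by it. Of the 12 largest falls, 3 belonged to no list. Zfp281, a zinc finger transcription factor, was at 2.53 and 0.373 FPKM against 7.06 and 9.39, Ckb, brain creatine kinase, at 5.35 and 11.9996 against 38.9 and 34.1, and Gjc3, a connexin of glia, at 1.93 and 1.31 against 9.09 and 9.56. All of these passed (adjusted p between 0.0343 and 0.0437).

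**Figure D4:**
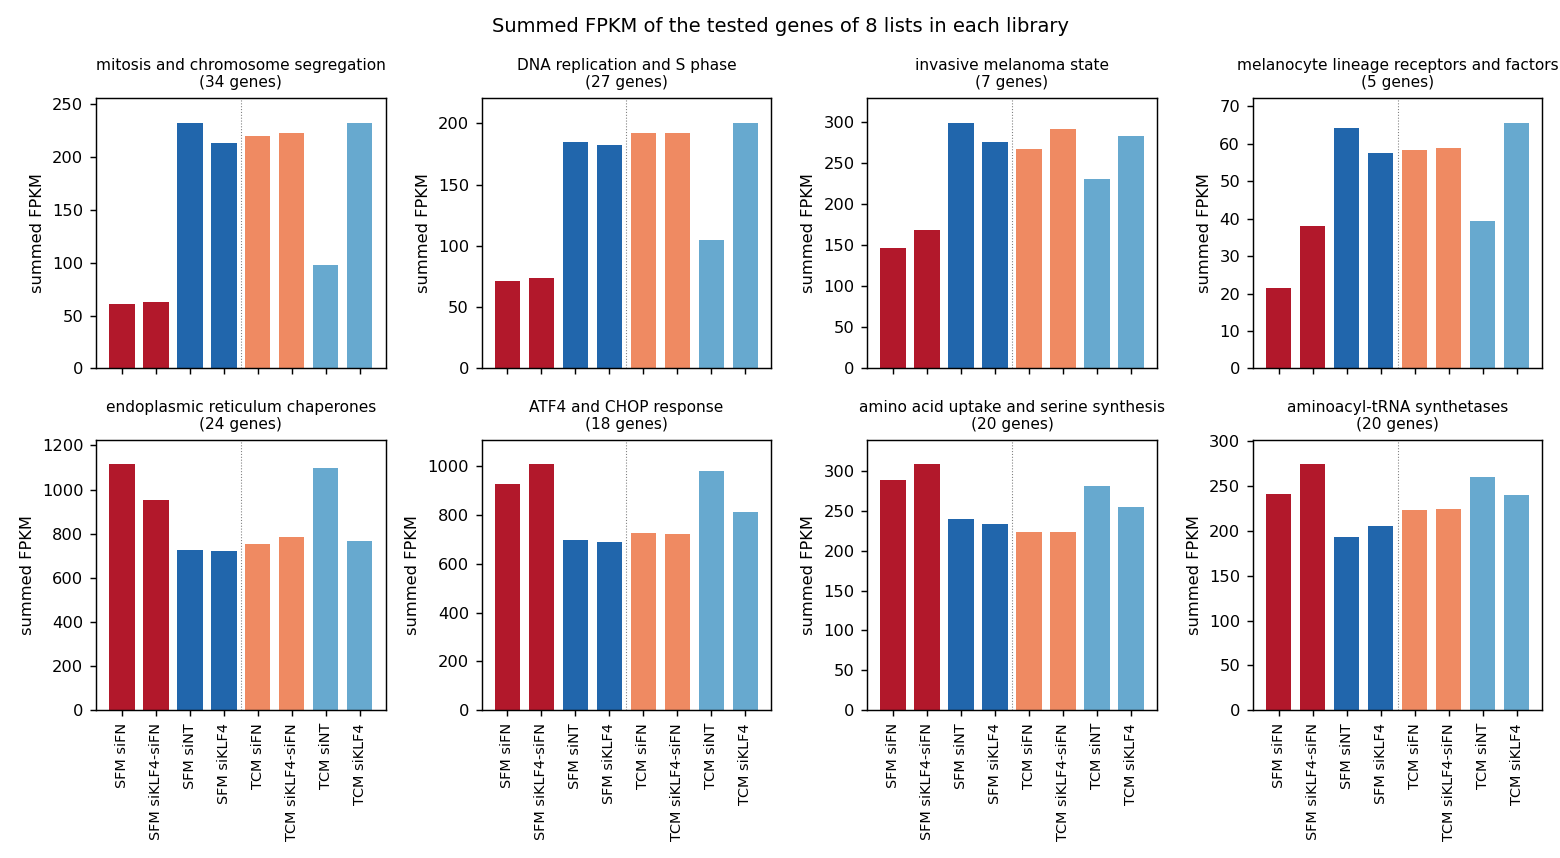
Summed FPKM of the tested genes of 8 lists in each library, with SFM libraries left of the dotted line and TCM libraries right of it. Red and orange bars had siFN and blue bars did not. The mitosis sum was 60.6 and 62.6 in the SFM siFN and SFM siKLF4-siFN libraries, against 233 and 213 in SFM siNT and SFM siKLF4, and 97.9 in TCM siNT.

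On TCM matrix the same contrast behaved otherwise. There limma called 0 genes for siFN, with 384 at an unadjusted p under 0.05, and that count does not show that siFN made no difference. The difference between media was tested as the siFN difference on SFM minus that on TCM. It passed in 442 genes, 224 higher (3.25%) and 218 lower (3.16%), with 2303 at an unadjusted p under 0.05. Of the 462 SFM calls 356 (77.1%) also passed this test, which is 80.5% of its own calls. Both tests share the 4 SFM libraries. Without TCM siNT the test called 47 genes. Without SFM siFN it called 2032 and without TCM siKLF4 523. Without any one of the other 5 libraries it called 0, while unadjusted p-values under 0.05 numbered 1354 to 1937.

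The TCM side rests on unlike pairs. The siRNA acted in other cells, so these RNA values cannot check the label of TCM siNT or of any other library, and each value on TCM matrix holds only if the labels are right. Top2a stood at 9.04 and 9.12 FPKM in TCM siFN and TCM siKLF4-siFN, against 1.74 and 5.82 in TCM siNT and TCM siKLF4. All 34 tested mitosis genes and all 27 S phase genes were lower in TCM siNT than in each of the other 3 TCM libraries, against 2321 of all 6888 genes. The median of the mitosis list on TCM matrix was therefore 1.02 for siFN minus siNT and -0.06 for siKLF4-siFN minus siKLF4. ER chaperones followed in the other direction, with 20 of 24 higher in TCM siNT than in the other 3, against 2221 of all 6888 genes. Their summed FPKM was 1114 and 955 in SFM siFN and SFM siKLF4-siFN and 724 and 723 in SFM siNT and SFM siKLF4. It was 755 and 783 in TCM siFN and TCM siKLF4-siFN, against 1096 and 768 in TCM siNT and TCM siKLF4. The part of the TCM siNT library in the test between media was not tested. Leaving a library out also lowers the residual degrees of freedom, so the count of calls without TCM siNT does not measure that part.

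Adhesion and cell state genes were also set side by side on TCM matrix. Ctgf was at 3.01 and 3.34 FPKM in TCM siFN and TCM siKLF4-siFN, against 3.23 and 4.27 in TCM siNT and TCM siKLF4, and its test between media gave -0.69 (adjusted p = 0.0909). Cd44 was at 2.70 and 2.74 against 2.42 and 2.94 FPKM on TCM matrix, with -0.71 (adjusted p = 0.0558). Nes was at 16.5 and 16.8 against 12.5 and 17.2, and its difference between media of -1.77 passed (adjusted p = 0.0379). Vim, at 205 and 225 against 163 and 215 FPKM, passed as well (-1.20, adjusted p = 0.0456).

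**Figure D5:**
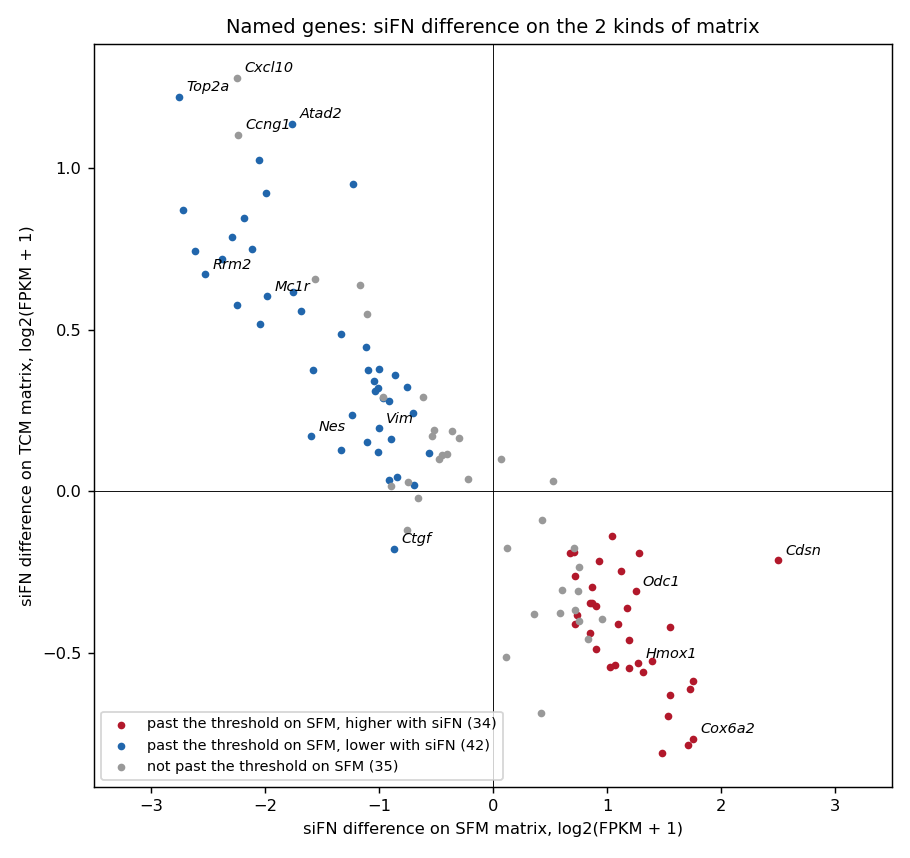
The siFN difference on SFM matrix (x axis) and on TCM matrix (y axis) for 111 named genes, both in log2(FPKM + 1). Red points (34) passed on SFM matrix as higher, blue points (42) as lower, and grey points (35) did not pass. No gene passed on TCM matrix, where Top2a is above 0 and Ctgf below.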

How the data were processed

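RNA of B16-F10 cells was sequenced by the submitters in 8 libraries, 1 per condition, 4 of them on SFM matrix. The authors deposited FPKM values, 46477 rows by gene symbol, made with STAR 2.4.1d and Partek on mouse build mm10, per the submitters' processing notes. How genes were counted, with which annotation, strand setting and scaling, is not given in the sources used here. Fragments that overlapping genes, antisense genes or near-identical copies share may be split in ways that cannot be checked.

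The steps computed from these values are as follows. Symbols were matched to GENCODE M21 (GRCm38, the assembly of mm10) for 90.4% of rows. Of the 6888 genes tested, whose FPKM averaged at least 1 across the 4 SFM libraries, 94.7% had an annotated length. Depth was estimated from the steps of low FPKM values, of which 44.9% to 48.9% lay within 0.05 of a whole read, so it is approximate. Differences were tested on log2(FPKM + 1), a pseudocount of 1, with limma 3.58.1 in R 4.3.3. The model held medium, siFN, medium by siFN and siKLF4, with a variance trend and 3 residual degrees of freedom. Tests were two-sided with Benjamini-Hochberg adjustment at 0.05 over all genes tested, and the code was tested on simulated data. With 1 library per condition, p-values rest on what this model leaves over and not on spread among replicates. That remainder mixes any dependence of siKLF4 on medium or siFN with variation between libraries, which may be technical. These cannot be told apart. Figures were drawn with matplotlib 3.10.9 in Python 3.11.15.

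The members, the gene lists and the rule for named genes were chosen with earlier results of these data known, so lists are described by counts and medians only. Named genes are the 12 largest called differences in each direction and up to 4 members of smallest p of each list, with Fn1, Klf4 and the measured matrix receptors. Gene models without an official name, clone names included, were passed over. Of the 161 genes this gives, 111 are described. The other 50, of which limma called 0 and 41 had an unadjusted p under 0.05, were left out with their values known. Promoters are the 250 bases before the RefSeq start (GRCm38.p6) nearest the GENCODE start, found for 4334 of the genes tested and printed where both starts lay within 30 bases. Calr therefore stands for the ER chaperones.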

Additional observations from a re-analysis of the deposited data

Results flagged for a closer look

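For the named genes below, the siFN difference on SFM matrix minus the siFN difference on TCM matrix passed an adjusted p of 0.05 in limma, which is what brought them here. Values are on the log2(FPKM + 1) scale, and a negative one means a lower siFN difference on SFM matrix. The test called 442 genes with all libraries and 47 without TCM siNT, which enters every value. Explanations were not tested.

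Among mitosis and S phase genes the values were Top2a (-3.97), Ccna2 (-3.59), Cdca3 (-3.36), Birc5 (-3.10), Ccnb1 (-3.07), Prc1 (-2.86), Aurkb (-2.82), Anln (-1.82) and Gtse1 (-2.37) for division and Rrm2 (-3.20), Mcm4 (-2.24), Mcm5 (-1.96), Rpa2 (-1.48) and Topbp1 (-1.38) for replication. In G1 control they were Cdkn2d (-1.46) and E2f1 (-1.20), in chromatin Hmgb2 (-3.03), Atad2 (-2.90), Dek (-2.18) and Ezh2 (-1.22). Every one of these is negative.

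Pigment, state and adhesion genes gave Mc1r (-2.58), Tyr (-1.33), Rab27a (-0.91), Nes (-1.77), Sox9 (-1.47), Anxa1 (-1.26), Vim (-1.20), Met (-1.26) and Tpm4 (-1.13). Myc (1.12), Zyx (1.61) and Plaur (0.96) were positive. Ifit2 had -1.65.

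Stress and amino acid genes gave Ppp1r15a (1.92), Hyou1 (1.88), Derl1 (1.15), Trib3 (1.39), Hmox1 (1.80), Slc1a5 (1.37), Slc6a9 (1.21), Pycr1 (1.56), Wars (1.26) and Vars (1.11). For ribosome building the values were Ifrd2 (1.65), Mybbp1a (1.54), Nop16 (1.18) and Rrp9 (0.86), and for polyamines Odc1 (1.56), Srm (1.74) and Sat1 (-1.05). Mitochondrial and metabolic genes gave Mrpl38 (1.14), Mrpl24 (1.16), Mrps18b (1.29), Mrpl18 (-1.56), Cox6a2 (2.52), Uqcrh (-1.08), Acot2 (2.50) and Fabp5 (-1.80), with P4ha2 (0.89), Ndrg1 (0.98) and Psmb5 (1.20) for hypoxia and the proteasome.

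Genes outside the lists gave Cdsn (2.71), Sh2d6 (2.34), Gsto1 (2.33), Angptl6 (2.18), Steap1 (1.97), Cyb5r1 (2.23), Chchd10 (2.29), Zfp281 (-3.08) and Gjc3 (-2.91).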

How the results depend on the processing

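The count of genes called for siFN on SFM matrix was 462. It was 233 with a pseudocount of 0.1, 257 with a mean FPKM of at least 5, 10 without a filter, 956 in protein-coding genes only, 718 after quantile normalization and 293 with medium by siKLF4 added. The SFM libraries alone gave 926 with siKLF4 in the model and 202 without it. The split into higher and lower was 223 and 239 in the main analysis and 379 and 339 after quantile normalization. It was 151 and 106 at a mean of at least 5 and 304 and 622 in the SFM libraries alone with siKLF4. With 1 library left out, counts ran from 0 to 1795, and from 0 to 2032 for SFM minus TCM. That test called 442 genes, but 0 with a pseudocount of 0.1 (2262 at an unadjusted p under 0.05), 258 at a mean of at least 5, 7 without a filter, 994 in protein-coding genes, 737 after quantile normalization and 185 with medium by siKLF4 added. With the TCM siFN libraries averaged into 1, chosen after seeing the data, the counts were 57 and 0 (1438 at an unadjusted p under 0.05). It could not be fitted in the SFM libraries alone. The cause was not tested. Of the 462 calls, 447 were called after quantile normalization and 0 without a filter.

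Genes past 1 in both pairs numbered 142, against 273 with a pseudocount of 0.1, 34 with 5 and 53 at a mean of at least 5. The sign turned in 3 genes that did not pass: Klf4, Des and Cd68, whose values with 1 library left out ran from -0.13 to 0.27, from -0.069 to 0.31 and from -0.25 to 0.47. The labels carry no replicate numbers to block on. Both pairs are matched by siKLF4, which is in the model, so the fits with 462 and 926 calls hold that match. A lone library left in a group is assumed to vary like the other groups. Correcting for exon length, also chosen after seeing the data, gave 640 calls, 345 higher and 295 lower. At 11600000 to 23000000 estimated reads, counting error limits genes near an FPKM of 1.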
